A study of Mus musculus with 15 samples.

Results

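The chromatin around 10 T cell cytokine genes, Il2, Il21, Ifng, Il4, Il5, Il13, Il17a, Il10, Tnf and Csf2, was described from the intervals called in EL4 cells. Each gene was taken by name with its RefSeq span on the mouse build GRCm38.p6, and its window is that span with 20 kb on each side. The rule used no measured value, although the genes were chosen with earlier results of these data known. These are 10 of 49550 genes on chromosomes 1 to 19 and X, of which 21627 are protein-coding and serve as the background. EL4 is a T lymphoma line of the mouse strain C57BL/6N, and every library came from this line, kept in RPMI medium with serum and with no drug or stimulus named in the labels. ChIP-seq of H3K4me3, H3K9ac, H3K27ac, H3K27me3 and H3K36me2 and ATAC-seq, which marks accessible DNA, gave 2 replicates each and thus 12 lists of intervals. The lists hold positions without scores or reads, so the depth behind an interval is unknown and a missing interval does not show that a mark was absent. There is 1 line and 1 condition, and the study describes replicates as technical, so the replicates show only the spread between libraries and calls, and no test between conditions was possible.

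The T cell label was checked against marker genes. At the gene with 3 kb upstream, all 9 T cell marker genes (Cd3e, Cd3d, Cd3g, Lck, Zap70, Lat, Thy1, Cd28 and Tcf7) held H3K27ac, H3K9ac and H3K4me3 in both replicates, 8 of them ATAC-seq, and 0 of them H3K27me3. Of 5 B cell markers, 1 (Pax5) held the 3 active marks and 0 held ATAC-seq in both replicates. Of 5 myeloid markers, 2 (Itgam and Spi1) held the active marks and 1 (Spi1) held ATAC-seq. H3K27me3 was found at 2 of the 5 B cell markers and 1 of the 5 myeloid markers. Of protein-coding genes, 51.1% held H3K27ac, 50.0% H3K9ac, 51.3% H3K4me3, 46.5% ATAC-seq and 18.2% H3K27me3 in both replicates. Pax5 and Itgam were named after their values were seen. The lists held between 17519 (ATAC-seq, replicate 1) and 46015 (H3K27me3, replicate 1) intervals.

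Cytokine genes are kept silent in most resting T cells and are transcribed after the T cell receptor is engaged, through calcineurin and NFAT, AP-1 and NF-kB. Which of them can be induced depends on the helper lineage, with Ifng in Th1 cells, Il4, Il5 and Il13 in Th2 cells and Il17a in Th17 cells. H3K4me3, H3K9ac and H3K27ac are found at active promoters and enhancers, H3K36me2 over broad regions within and around genes, and H3K27me3 over regions silenced by Polycomb.

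An interval was counted for a gene when it shared at least 1 bp with its window in both replicates. H3K27me3 was found in 0 of 10 cytokine windows, with no interval in either replicate, against 30.2% of protein-coding genes. ATAC-seq was found in 2 of 10 windows (Il5 and Tnf), against 59.4% of protein-coding genes. H3K27ac was found in 3 (Il4, Il5 and Tnf; 62.8%), H3K9ac in 3 (Il21, Il5 and Tnf; 61.4%) and H3K4me3 in 5 (Il21, Il4, Il5, Tnf and Csf2; 62.9%), where each percentage is that of the protein-coding genes. H3K36me2 was found in 7 windows (Ifng, Il4, Il5, Il13, Il10, Tnf and Csf2), against 59.2%. By these shares the cytokine windows lay below the background for every set but H3K36me2. The counts for H3K4me3 (5 of 10) and H3K36me2 (7 of 10) were near their shares, so neither is read as a difference. Of the 7 windows with H3K36me2, 5 held both replicates at the same place, and the background was not counted in that way. The genes are short, from 2630 bp for Csf2 to 9878 bp for Il21. With the same 40 kb around the midpoint of every protein-coding gene, the background was 42.3% for ATAC-seq, 46.9% for H3K27ac, 44.7% for H3K9ac, 45.8% for H3K4me3, 52.0% for H3K36me2 and 22.5% for H3K27me3. The cytokine genes were not recounted with this narrower window, so their counts cannot be set against these shares. The H3K4me3 intervals counted for Il21, 17.9 kb downstream, lie outside 40 kb around its midpoint.

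By these windows, 4 genes (Il21, Il4, Il5 and Tnf) were accessible or acetylated, as were 64.4% of protein-coding genes. The remaining 6 (Il2, Ifng, Il13, Il17a, Il10 and Csf2) had none of ATAC-seq, H3K27ac, H3K9ac and H3K27me3 in both replicates and are called unmarked, as were 19.7% of protein-coding genes. None of the 10 was in an H3K27me3 class, so the comparison of accessible with unmarked loci is the only one that these genes gave. H3K4me3, which the classes did not use, was in the window of 4 of 4 accessible or acetylated genes and of 1 of 6 unmarked genes (Csf2). At Il21, Il4, Il5 and Tnf it overlapped the acetyl intervals that set the class, so this count is not independent of the classes. H3K36me2, which the classes did not use either, was in 3 of 4 and in 4 of 6. Over all protein-coding genes, 62.9% of windows held H3K4me3 and 59.2% held H3K36me2. These shares were not counted within each class, so the counts per class are descriptions only. Il2 alone had no interval of any of the 12 lists in its window, against 13.1% of protein-coding genes.

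Few of these intervals lay at the cytokine genes themselves. At the gene itself with 3 kb upstream, ATAC-seq was found in both replicates at 1 of 10 genes against 46.5% of protein-coding genes, H3K27ac at 1 against 51.1% and H3K9ac at 1 against 50.0%. The gene was Tnf in each case. H3K4me3 was found at 2 (Tnf and Csf2) against 51.3% and H3K36me2 at the same 2 against 45.8%. H3K27me3 was found at 0 against 18.2%. The cytokine genes are short, and these shares were not matched for gene length. Leaving out intervals that touch another gene or its 3 kb flanks, the windows with ATAC-seq fell from 2 to 0, those with H3K27ac from 3 to 0 and those with H3K4me3 from 5 to 2. This setting also drops the intervals of Tnf itself, since Lta lies 1.16 kb away.

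**Figure D1:**
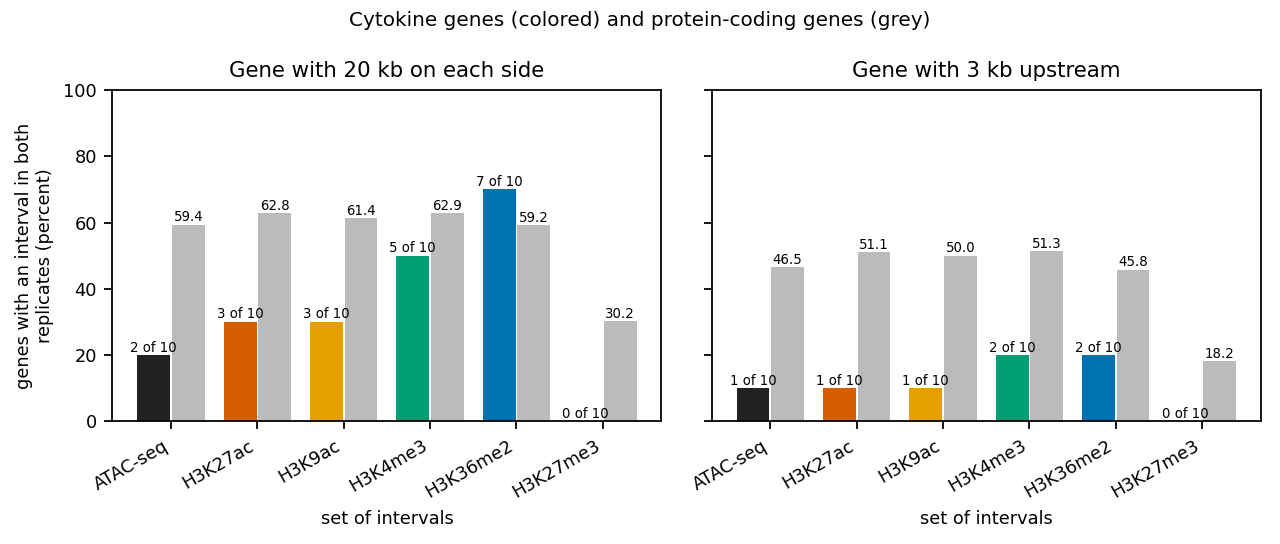
Percent of genes with an interval in both replicates, for the 10 cytokine genes (colored bars) and the 21627 protein-coding genes (grey bars), in the gene with 20 kb on each side (left) and the gene with 3 kb upstream (right). H3K36me2 in the wide window is the only bar of the cytokine genes above the grey one, and at the gene itself at most 2 of 10 held any set. In the wide window the bars of H3K4me3 and H3K36me2 lie near the grey ones. Of the 7 windows in that H3K36me2 bar, 5 held both replicates at the same place.

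The base pairs covered showed the same contrast between Tnf and the others. H3K27ac covered 23.4% of the Tnf window in replicate 1 and 23.1% in replicate 2, and between 0 and 2.92% of each of the other 9 windows. For H3K4me3 the Tnf values were 15.8 and 16.1%, and the next highest were those of Il5, 4.62 and 4.58%. H3K36me2 covered 26.5% of a cytokine window on average in replicate 1 and 28.2% in replicate 2, against 24.3 and 23.9% for protein-coding genes. The medians were 24.8 and 29.5% for the cytokine windows, against 13.5 and 13.1%. H3K27me3 covered 0% against a mean of 8.37 and 9.56%. In all, 107 intervals fell in the windows, of which 51 lay around Tnf. Il4 and Il13 lie 12.7 kb apart, so that their windows overlap and share intervals.

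**Figure D2:**
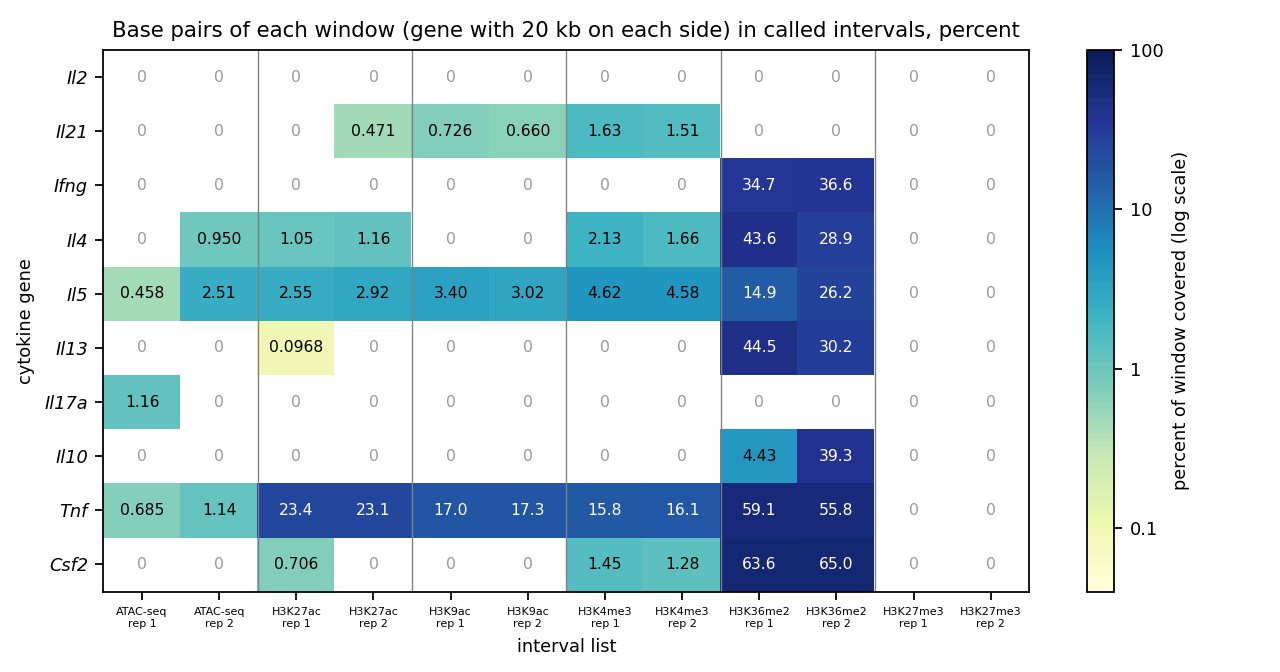
Percent of the base pairs of each cytokine window (lines) inside intervals of each of the 12 lists (columns, 2 replicates per set), on a log color scale, with white for 0. Tnf and Il5 held all sets but H3K27me3, Il2 held none, and H3K36me2 covered up to 65.0% (Csf2, replicate 2).

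The promoter letters of 4 genes are printed to set the 2 genes with intervals at the gene in both replicates, Tnf and Csf2, beside Il2 and Ifng, which had none over the start in either. The sequences are those of RefSeq on GRCm38.p6, from 250 bases before to 50 bases after the start, 5′ to 3′ along the gene, for Tnf (chr17:35201958-35202257, minus strand), Csf2 (chr11:54249850-54250149, minus strand), Il2 (chr3:37125905-37126204, minus strand) and Ifng (chr10:118440796-118441095, plus strand). Capitals mark matches on either strand to TATAAA (core promoter box), GGAAAA (NFAT type), TGANTCA (AP-1 type), TGACGTCA (CRE type), GGANTTTCC (NF-kB type) or AGATAA (letters of the GATA type).
Tnf: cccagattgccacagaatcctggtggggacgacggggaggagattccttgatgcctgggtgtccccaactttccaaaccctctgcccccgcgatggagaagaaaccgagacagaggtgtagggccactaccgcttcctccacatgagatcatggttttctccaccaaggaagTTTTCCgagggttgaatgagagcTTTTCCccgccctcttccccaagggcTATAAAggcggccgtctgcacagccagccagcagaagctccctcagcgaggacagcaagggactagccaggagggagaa
Csf2: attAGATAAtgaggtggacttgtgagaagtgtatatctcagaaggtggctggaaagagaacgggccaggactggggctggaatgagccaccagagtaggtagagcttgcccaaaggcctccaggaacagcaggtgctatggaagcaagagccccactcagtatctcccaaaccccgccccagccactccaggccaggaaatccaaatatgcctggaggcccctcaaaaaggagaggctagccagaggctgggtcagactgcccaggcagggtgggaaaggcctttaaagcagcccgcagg
Il2: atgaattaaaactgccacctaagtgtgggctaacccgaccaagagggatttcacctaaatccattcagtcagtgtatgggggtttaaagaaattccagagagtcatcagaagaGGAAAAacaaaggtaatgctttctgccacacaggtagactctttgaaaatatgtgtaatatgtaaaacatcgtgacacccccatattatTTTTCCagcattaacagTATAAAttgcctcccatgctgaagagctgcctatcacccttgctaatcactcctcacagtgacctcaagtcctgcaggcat
Ifng: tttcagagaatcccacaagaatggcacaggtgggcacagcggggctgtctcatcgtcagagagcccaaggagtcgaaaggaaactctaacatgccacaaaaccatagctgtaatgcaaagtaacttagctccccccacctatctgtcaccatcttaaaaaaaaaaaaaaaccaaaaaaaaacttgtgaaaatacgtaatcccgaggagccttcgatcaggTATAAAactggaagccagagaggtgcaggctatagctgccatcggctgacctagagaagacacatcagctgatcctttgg
A promoter entry was found for 9 of the 10 genes, with 2 for Il4, and not for Il10. The Tnf promoter was touched by H3K27ac, H3K9ac and H3K4me3 in both replicates and by ATAC-seq in replicate 2, the Csf2 promoter by H3K36me2 in both, and those of Il2 and Ifng by no interval. TATAAA was found in 5 of the 10 member promoters (Il2, Ifng, Il13, Il17a and Tnf), against 13.6% of 32851 promoters in the table, with its first base between -31 and -29 bp from the start on the strand of the gene. GGAAAA was also found in 5 (Il2, Il21, Il4, Il13 and Tnf), against 23.4%. TGANTCA was found in 1 (Il17a; 7.81%), GGANTTTCC in 1 (Il13; 1.25%), where it overlaps a GGAAAA match on the other strand, AGATAA in 2 (Il13 and Csf2; 11.2%) and TGACGTCA in 0 (1.79%). Tnf had 11 CG dinucleotides, more than any of the others, which had between 1 (the first entry of Il4) and 7 (Ifng). The median of all promoters was 7, and their quartiles were 3 and 20. These matches are letters in a short window and show no binding.

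Tnf encodes tumor necrosis factor, an inflammatory cytokine that T cells and macrophages release. It was the only one of the 10 genes with accessible and acetylated chromatin at the gene in both replicates. ATAC-seq intervals lay inside the gene at chr17:35200505-35200796 (292 bp) in replicate 1 and at chr17:35200535-35200797 (263 bp) in replicate 2, so both lay at the same place, from 1211 and 1210 bp past the start. Replicate 2 held a further ATAC-seq interval of 221 bp over the start, from -90 to 130 bp, which replicate 1 lacked.

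The acetyl marks and H3K4me3 covered the start and most of the body of Tnf. H3K27ac formed 1 interval of 2404 bp in replicate 1 (from -206 to 2197 bp from the start) and of 2442 bp in replicate 2 (from -264 to 2177 bp), and covered 83.2 and 82.5% of the gene. H3K9ac formed intervals of 2062 and 2025 bp and covered 69.5 and 68.2%. H3K4me3 formed 1 interval of 2104 bp in replicate 1 and 2 intervals of 390 and 1869 bp in replicate 2, and covered 68.8 and 66.6%. For these 3 marks the replicates differed by less than 3 percentage points of the gene. H3K36me2 covered 84.6% of the gene in replicate 1 and 39.1% in replicate 2, and in neither did it cover the start. The nearest H3K27me3 interval was 335 kb away in replicate 1 and 271 kb in replicate 2.

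The neighbors of Tnf belong to the same family or to the same dense stretch of immune genes. Ltb, which encodes lymphotoxin beta, held H3K27ac, H3K9ac and H3K4me3 in both replicates and ATAC-seq in neither. The H3K4me3 intervals there measured 2048 and 2017 bp. Lta, which encodes lymphotoxin alpha and lies on the other side of Tnf, held H3K27ac (245 bp) and H3K9ac (313 bp) in replicate 1 only. H3K36me2 was called at Lta in replicate 2 only. Further intervals of the 3 marks lay at Lst1 and at or before Nfkbil1. Both replicates also held H3K27ac (731 and 668 bp) and H3K9ac (259 and 243 bp) 8.81 to 9.02 kb downstream of Tnf. More H3K27ac (255 and 285 bp) lay 9.86 kb downstream. These acetylated intervals touched no gene and lacked H3K4me3. Within the window the ATAC-seq intervals were those inside Tnf and over its start.

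Csf2 encodes the growth factor GM-CSF. It held H3K4me3 in both replicates without ATAC-seq or H3K9ac in either. The H3K4me3 intervals measured 618 bp in replicate 1 (331 to 948 bp past the start) and 545 bp in replicate 2 (413 to 957 bp), so both lay inside the gene and not over its start. H3K27ac was called at the same place in replicate 1 only (301 bp). H3K36me2 covered 100% of the gene in both replicates and 63.6 and 65.0% of the window, the highest values of the 10 genes. Csf2 lies inside the noncoding gene Gm12223, which the same H3K36me2 intervals touch. The nearest ATAC-seq intervals lay 29.6 and 29.7 kb downstream, together with H3K27ac. The nearest H3K27me3 was 89.9 kb away in replicate 1 and 29.5 kb in replicate 2. Il3, the related growth factor gene 15.2 kb upstream, held no interval in either replicate.

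**Figure D3:**
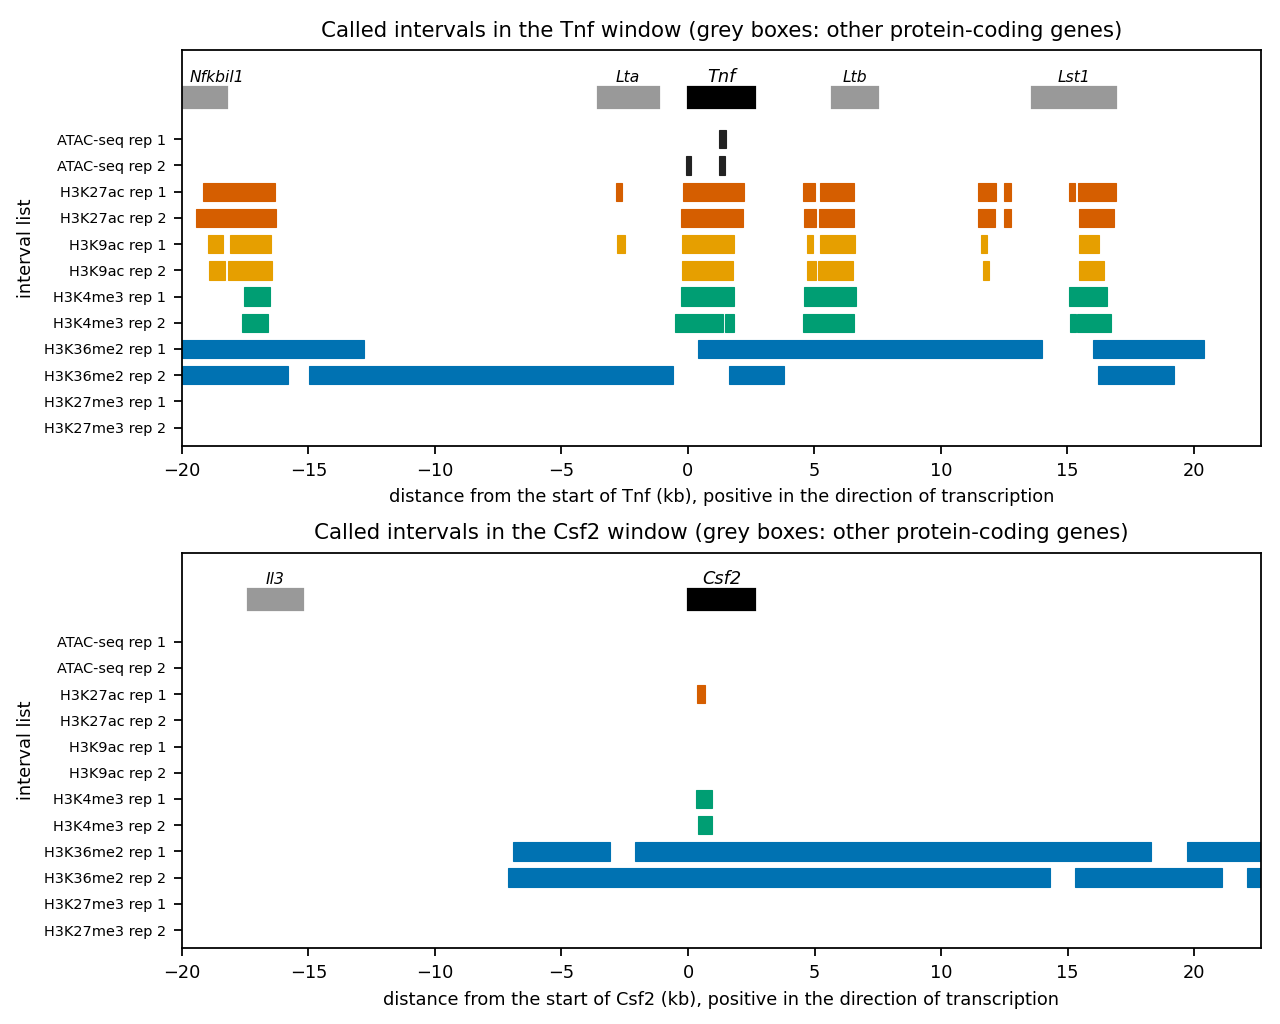
Intervals of the 12 lists in the windows of Tnf (top) and Csf2 (bottom), with the distance from the start of the gene in kb on the x axis, 1 line per list, black boxes for the gene and grey boxes for other protein-coding genes. At Tnf the acetyl marks and H3K4me3 cover the start in both replicates, while at Csf2 short H3K4me3 intervals of 618 and 545 bp lie within H3K36me2 that covers the whole gene.

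Il2 encodes interleukin 2, the T cell growth factor, and Il21 encodes a related cytokine of follicular helper T cells. They lie 96.8 kb apart on chromosome 3. No interval of any list fell in the 45.2 kb window of Il2. It lay in a stretch of 340 kb free of all 12 lists (chr3:36864232-37204026). This stretch reached 256 kb from Il2 on the lower side and 78.1 kb on the higher side. Adad1 and other genes also lie wholly or partly in it. Of 21627 protein-coding genes, 2023 (9.35%) lay untouched in a free stretch at least as long. The nearest intervals to Il2 were H3K4me3, 78.1 kb away in both replicates, and H3K36me2 was 675 and 581 kb away. For H3K27me3 the distances were 593 and 1160 kb, so no Polycomb mark was called near Il2 either. Whether reads can be placed uniquely in this stretch was not tested.

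The intervals that end this free stretch lie next to Il21. A small group lay 17.9 to 18.4 kb downstream of Il21 and touched no gene. In it, H3K4me3 intervals measured 815 bp in replicate 1 and 753 bp in replicate 2, H3K9ac intervals 362 and 329 bp, and H3K27ac 235 bp in replicate 2 only. No ATAC-seq interval lay there, the nearest being 79.7 and 79.6 kb from Il21. Il21 itself held no interval, and it is counted as acetylated through this group alone.

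Ifng encodes interferon gamma, the main cytokine of Th1 cells. Within 20 kb it held H3K36me2 only, with 4 intervals over 34.7% of the window in replicate 1 and 3 over 36.6% in replicate 2. A 3199 bp interval starting 1.51 kb past the end of the gene was identical in both replicates. The gene itself and its start were free of intervals over 9.0 kb.

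Just outside its window, Ifng was flanked by accessible and acetylated sites that touched no gene. Conserved noncoding elements far from Ifng are known to act as its enhancers in T cells. ATAC-seq was called at chr10:118418900-118419539 (640 bp) in replicate 1 and at chr10:118418900-118419534 (635 bp) in replicate 2, 21.5 kb upstream. H3K27ac intervals of 1045 and 1079 bp and H3K9ac intervals of 809 and 781 bp lay over the same site, and H3K4me3 was absent from both lists there. A further site 40.8 and 40.6 kb upstream held ATAC-seq (320 and 467 bp), H3K27ac (1659 and 1562 bp), H3K9ac (1200 and 1245 bp) and H3K4me3 (1293 and 1265 bp). Downstream, ATAC-seq and H3K27ac were called in both replicates at 23.1 and 22.8 to 22.9 kb, without H3K9ac or H3K4me3. Ifng is thus unmarked by the 20 kb rule and accessible with 50 kb on each side. The nearest H3K27me3 was 116 kb away in replicate 1 and 114 kb in replicate 2.

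Il4, Il13 and Il5, the Th2 cytokine genes of chromosome 11, lie in this order with Rad50, a DNA repair gene, between Il13 and Il5. The end of Rad50 nearer to Il13 is known to hold the locus control region of the Th2 genes. From 20 kb below Il4 to 20 kb above Il5, over 153 kb, replicate 1 held 3 ATAC-seq, 8 H3K27ac, 2 H3K9ac, 4 H3K4me3 and 8 H3K36me2 intervals. Replicate 2 held 6, 7, 2, 4 and 7 in the same order, and H3K27me3 had none in either. The intervals of the acetyl marks lay within or at the ends of Rad50 and beyond the end of Il4, and none lay at the 3 cytokine genes.

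At the end of Rad50 nearer to Il13, the sites stood just outside the 20 kb limit. The longest H3K27ac intervals measured 2257 bp (chr11:53655860-53658116) in replicate 1 and 2354 bp (chr11:53655889-53658242) in replicate 2, 21.2 kb upstream of Il13. H3K9ac intervals of 1279 and 1293 bp and H3K4me3 intervals of 350 and 325 bp lay within the same site. ATAC-seq was called 20.4 kb upstream of Il13 in both replicates (214 and 371 bp) and at 22.1 kb in replicate 1 only (415 bp). The site thus carried long acetylated intervals with little H3K4me3, and both replicates held 4 shorter H3K27ac intervals in the same part of Rad50. In the window, Il13 held H3K36me2 over 44.5 and 30.2% and 42 bp of H3K27ac at the very edge in replicate 1. Il13, which encodes a cytokine of allergic inflammation, held no interval at the gene.

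At the end of Rad50 nearer to Il5, which is known to be its start, all active marks lay together. H3K4me3 measured 1837 and 1794 bp, H3K9ac 1507 and 1337 bp, H3K27ac 1129 and 1296 bp, and ATAC-seq 203 bp in replicate 1 and 214 and 310 bp in replicate 2. These intervals lay 12.8 to 13.8 kb upstream of Il5, the growth factor gene of eosinophils, and made it count as accessible and acetylated. At Il5 itself only replicate 2 held intervals, an ATAC-seq interval of 372 bp (998 to 1369 bp past the start) and an H3K36me2 interval of 7999 bp over the start. In replicate 1, H3K36me2 came no nearer than 3.3 kb. Short H3K4me3 intervals of 212 and 235 bp lay 10.7 kb downstream of Il5 in both replicates and touched no gene. The H3K36me2 intervals of the 2 replicates share 0 bp in the Il5 window, so that this count rests on different places.

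Il4 encodes the cytokine that directs Th2 differentiation. Beyond its end, 6.14 to 6.86 kb downstream and in the 8.21 kb between Il4 and Kif3a, a site was called that touched no gene and lay nearer to Kif3a. H3K4me3 measured 982 bp in replicate 1 and 769 bp in replicate 2, and H3K27ac measured 200 and 283 bp in replicate 1 and 537 bp in replicate 2. ATAC-seq (439 bp) was called there in replicate 2 only, and H3K9ac in neither. H3K36me2 intervals of 26999 and 34799 bp over Kif3a reached into this site. At the gene with 3 kb upstream, Il4 held H3K36me2 in replicate 1 only.

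**Figure D4:**
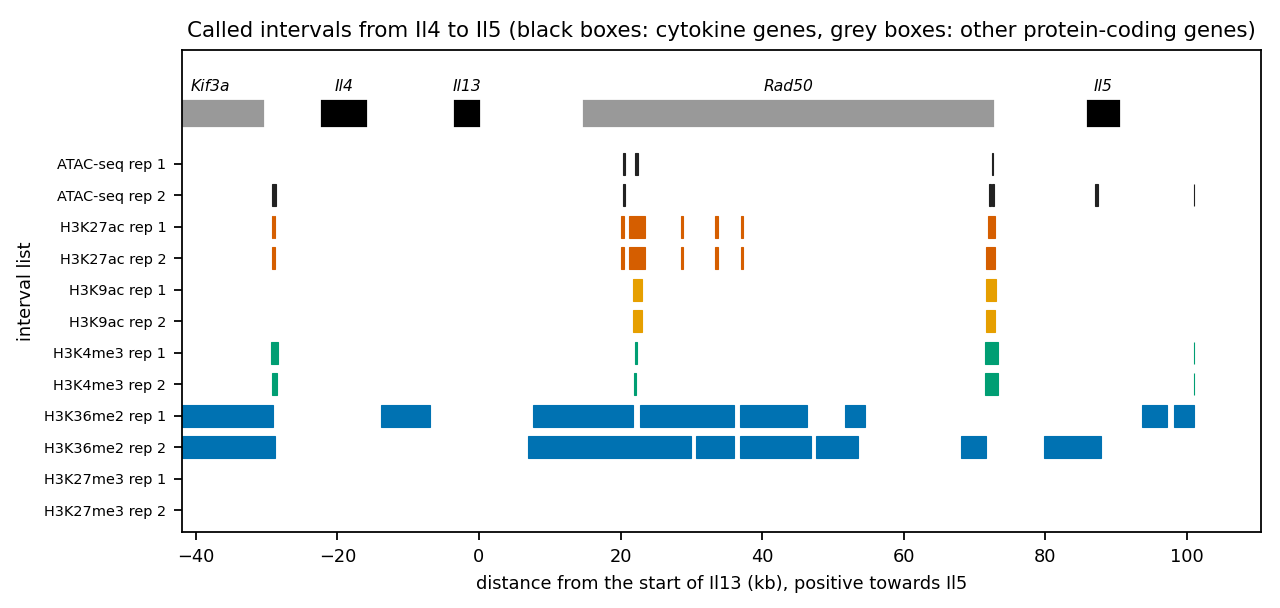
Intervals of the 12 lists from Kif3a to beyond Il5, with the distance from the start of Il13 in kb on the x axis and 1 line per list. Accessible and acetylated intervals stand in Rad50, near both of its ends, and between Kif3a and Il4, while the bodies of Il4 and Il13 hold none and Il5 holds ATAC-seq and H3K36me2 in replicate 2 only.

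Il17a encodes the main cytokine of Th17 cells. Its window held only ATAC-seq intervals of 207 and 298 bp in replicate 1, at 6.15 and 9.3 kb downstream, and no interval of any list in replicate 2. H3K27me3 came within 50 kb of it in both replicates, which it did for none of the other 9 genes. Replicate 1 held an interval of 7999 bp 40.3 kb upstream. Replicate 2 held intervals of 3199 bp at 37.7 kb and of 19599 bp at 46.7 kb upstream. The intervals of 7999 and 19599 bp touch the noncoding gene Lincmd1. Il17f, its paralog 42.6 kb away, held no interval.

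Il10 encodes an anti-inflammatory cytokine of regulatory and Th2 cells. Its window held H3K36me2 only, as 1 interval of 1999 bp over the lower end of the gene in replicate 1 and as intervals of 14199 and 5799 bp away from it in replicate 2. These share 0 bp, and the share of the window covered was 4.43% and 39.3%. The sets other than H3K36me2 lay at least 71.2 kb away.

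Across the 10 genes, the median distance to the nearest ATAC-seq interval was 25.6 kb in each replicate, against 3.66 and 2.27 kb for protein-coding genes. It was 20.6 kb for H3K27ac in each replicate against 0.003 and 0 kb, 26.9 kb for H3K9ac against 1.08 and 0.996 kb, and 20 and 19.9 kb for H3K4me3 against 0 and 0 kb. For H3K36me2 it was 2.72 and 6.78 kb against 1.92 and 1.74 kb. The median cytokine gene was thus farther from all of these sets than the median protein-coding gene, though only slightly for H3K36me2 in replicate 1. It was farther from H3K27me3 as well, at 200 and 199 kb against 53.1 and 59.3 kb. Distances were taken from the whole gene span, the cytokine genes are short, and the effect of gene length was not tested. Several medians stand near 20 kb, and the class of a gene therefore turns on the width of the window. Just inside the limit lay the groups of Il21 (17.9 kb) and just outside it those of Il13 (20.4 kb for ATAC-seq) and Ifng (21.2 kb for H3K27ac in replicate 2).

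**Figure D5:**
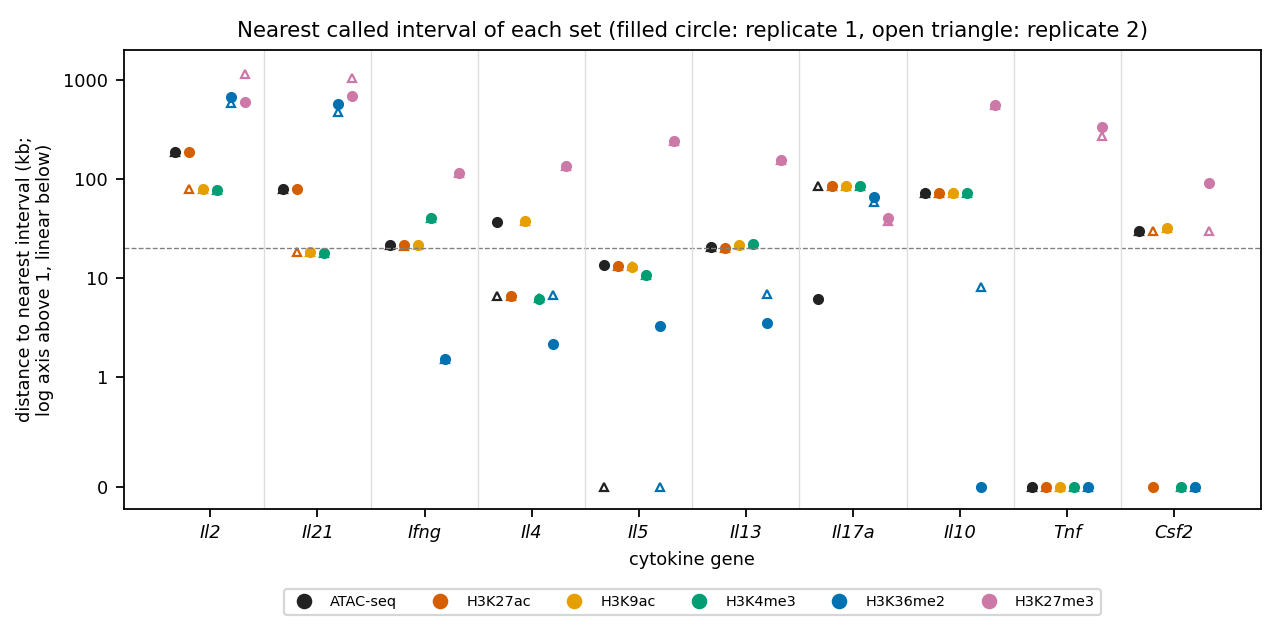
Distance in kb from each cytokine gene to the nearest interval of each set (colors), with filled circles for replicate 1 and open triangles for replicate 2, on an axis that is logarithmic above 1 kb and linear below. The dashed line marks 20 kb, and all H3K27me3 points lie above it, from 29.5 kb (Csf2, replicate 2) to 1160 kb (Il2, replicate 2).

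The genes of the pathway that induces cytokines contrasted with the cytokine genes. At the gene with 3 kb upstream, 20 of 21 induction genes held ATAC-seq in both replicates against 46.5% of protein-coding genes, and 21 of 21 held H3K27ac, H3K9ac and H3K4me3, against 51.1, 50.0 and 51.3%. They include the NFAT factors Nfatc1, Nfatc2 and Nfatc3, the calcineurin subunits Ppp3ca and Ppp3cb, and the AP-1 genes Fos, Fosb, Fosl2, Jun and Junb. The gene without ATAC-seq was Irf4. H3K36me2 was found at 13 of them, against 45.8%, and H3K27me3 at 2, Fos and Prkcq, against 18.2%. Gene length was not matched in this comparison.

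Of 10 lineage factors, 7 held ATAC-seq, H3K27ac, H3K9ac and H3K4me3 in both replicates, against 46.5, 51.1, 50.0 and 51.3% of protein-coding genes in this order. They were Gata3, Bcl6, Stat6, Ikzf1, Runx1, Runx3 and Ets1. Gata3 is the Th2 factor, but it was 1 of these 7, with Bcl6 and Runx3 among the others, so these calls do not single out a Th2 state. Tbx21 of Th1 cells and Foxp3 of regulatory T cells held none of these 4 sets. Foxp3 lies on chromosome X, whose reads the methods describe as discarded, while all 12 lists hold intervals there, from 331 to 732 each. H3K27me3 was found at Runx3 in both replicates and at Tbx21 in 1 replicate.

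Among 20 other cytokine genes, ATAC-seq was found at 3 (Tnfsf11, Tgfb1 and Il16), against 46.5% of protein-coding genes, and H3K27ac, H3K9ac and H3K4me3 at 5 each (against 51.1, 50.0 and 51.3%), these 3 with Ltb and Lif. H3K36me2 was found at 4, against 45.8%. H3K27me3 was found at 7 of the 20 (Il6, Il9, Tnfsf14, Xcl1, Ccl3, Ccl4 and Il16), against 18.2% of protein-coding genes and 0 of the 10 cytokine genes described here. Ccl3 and Ccl4 overlap in the gene table and share intervals. In these cells H3K27me3 was thus called at several cytokine and chemokine genes, and at none of the 10.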

How the data were processed

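ChIP-seq and ATAC-seq of EL4 cells were used as 12 lists of intervals, with 2 replicates for each of 6 sets. Of 15 samples in the labels, the input and RNA-seq samples are not analysed here. The authors aligned reads with STAR (version 2.5 in the submitters' processing notes), kept unique alignments, reduced duplicates with Picard, and called narrow marks and ATAC-seq with macs2 and H3K27me3 and H3K36me2 with Epic, with input as the ChIP-seq control. The deposited lists hold other values than counts, namely interval positions, and the depth is unknown. The labels name GRCm38, and gene positions are those of RefSeq GRCm38.p6. The strand came from the promoter table, and 4354 protein-coding genes without one, as well as Il10, were taken with 3 kb on both sides.

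A gene was called for a set when at least 1 bp of an interval of each replicate fell in its region. Genes, lists and motifs were chosen with earlier results of these data known, so counts are descriptions beside the share of protein-coding genes, and no p-value was computed. All 10 genes are named, with neighbors touched by their intervals or lying between them, and of the lists the first 10 genes with ATAC-seq or H3K27me3 in both replicates. Irf4, Tbx21, Foxp3, Lif and Ltb were named, and intervals from 20 to 50 kb listed, after values were seen. Results for 1 lineage factor of the list are not reported here. Of 4 counting functions tested on simulated data (3000 genes, 1200 intervals), 0 values differed from bedtools 2.31.1. Python 3.11.15 was used with numpy 2.4.6, pandas 2.3.3 and matplotlib 3.10.9.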

Additional observations from a re-analysis of the deposited data

How the results depend on the processing

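Over 27 quantities and 168 alternative values, 119 stayed within 1.5 times the reported count or within the spread of the replicates, and 49 did not. The width of the window changed most. With the gene span alone, intervals were found in both replicates at 1 gene for ATAC-seq, 1 for H3K27ac, 1 for H3K9ac, 2 for H3K4me3 and 2 for H3K36me2, and 1 gene was accessible or acetylated. With 5 kb on each side the values were 1, 1, 1, 2 and 4, and 1 gene was accessible or acetylated. With 50 kb they were 6 for ATAC-seq, 6 for H3K27ac, 7 for H3K9ac and 1 for H3K27me3 (Il17a), with 7 genes accessible or acetylated, 1 with H3K27me3 and 2 unmarked. Without intervals at other genes the counts were 0 for ATAC-seq, 0 for H3K27ac, 1 for H3K9ac, 2 for H3K4me3 and 3 for H3K36me2. Without those at other protein-coding genes only, chosen after seeing the data, they were 0, 0, 1, 3 and 4. With intervals of at least 500 bp, 0 windows held ATAC-seq and 2 genes were accessible or acetylated. Shares of protein-coding genes were not counted at the settings of this paragraph, so these counts stand without a background.

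An interval in either replicate gave 4 windows with ATAC-seq and 6 with H3K27ac, against 63.1 and 63.6% of protein-coding genes counted in this way. The H3K27ac count was thus near the background. At the gene itself either replicate gave 2 genes with ATAC-seq, 2 with H3K27ac and 6 with H3K36me2. By windows, 7 genes were accessible or acetylated and 3 unmarked. The background at the gene itself and of the classes was not counted in this way. Leaving out either replicate gave 4 to 5 windows with H3K27ac, against 63.1 to 63.2% of protein-coding genes. At the gene itself it gave 1 to 2 genes with ATAC-seq, 1 to 2 with H3K27ac and 3 to 5 with H3K36me2. By windows it gave 4 to 7 accessible or acetylated genes and 3 to 6 unmarked genes. The higher count of accessible or acetylated genes came from replicate 1 alone, through short intervals at Il13, Il17a and Csf2. Requiring both replicates at the same place, chosen after seeing the data, left 5 windows with H3K36me2 in place of 7. The mean share of a window covered in both replicates was 0.107% for ATAC-seq, 2.55% for H3K27ac, 1.93% for H3K9ac, 2.39% for H3K4me3 and 17.1% for H3K36me2, against 0.345, 2.77, 2.1, 2.54 and 27.4% as the mean of the replicates. No paired analysis was possible because the values come from no test. The lists carry no depth or score, so weak enrichment and lack of reads cannot be told apart.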
